A study of Mus musculus with 90 samples.

Results

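Transcripts of 10 core autophagy genes (Ulk1, Becn1, Atg7, Atg5, Map1lc3a, Map1lc3b, Gabarap, Gabarapl1, Gabarapl2 and Sqstm1) were followed in single mouse oocytes and embryos with and without maternal Plag1. The genes were chosen by name, as the rows of the deposited count table carrying these symbols. They were 10 of 24422 genes, and all 10 passed the filter on low counts. Autophagy encloses parts of the cytoplasm in a new membrane, the autophagosome, and delivers them to lysosomes for degradation. The kinase ULK1 starts the process, Beclin 1 (Becn1) belongs to the lipid kinase complex that marks the growing membrane, and ATG7 and ATG5 act in the conjugation reactions that attach ATG8 proteins to it. The ATG8 proteins fall into the LC3 subfamily (Map1lc3a, Map1lc3b) and the GABARAP subfamily (Gabarap, Gabarapl1, Gabarapl2), and p62 (Sqstm1) ties ubiquitin-bearing cargo to them. Autophagy is known to be induced after fertilization in the mouse, when stored oocyte proteins are broken down, and embryos that lack ATG5 from both the oocyte and their own genome arrest before the blastocyst stage.

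All animals were of the CD-1 strain, and all females were sexually mature and superovulated. MII oocytes, collected 21 to 23 h after the ovulation-triggering hormone hCG, came from wildtype (WT, n = 16) and Plag1 knockout (Plag1KO, n = 14) females. Embryos at the 2-cell stage (2c), 45 to 47 h after fertilization, were WT (n = 11) or matPlag1KO (n = 11), and embryos at the 8-cell stage (8c), 71 to 73 h after fertilization, were WT (n = 15) or matPlag1KO (n = 11). The oocytes came from unmated females and were not cultured, whereas the embryos were grown in KSOM medium from zygotes of mated females. Stage and culture therefore cannot be told apart between MII and the later stages. The name matPlag1KO marks embryos of Plag1KO mothers and WT fathers, which are heterozygous and carry an intact paternal Plag1 allele. Each library held 1 oocyte or whole embryo, whose transcripts were tagged at the 5′ end with molecular identifiers and sequenced beside ERCC spike-ins, RNAs added in a fixed amount. RNA per cell and number of cells therefore cannot be told apart. The labels do not tie oocytes or embryos to donor females, so p-values measure the spread between oocytes or embryos, some of which shared a mother.

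Of 90 libraries, 78 were kept and 12 with a median CPM (the standard scaling of gene counts to a library's total) below 1 were left out. Kept libraries held 222357 to 2502421 gene counts in WT MII oocytes, 438233 to 1772844 in Plag1KO MII oocytes, 116914 to 194287 in WT 2c, 92475 to 256529 in matPlag1KO 2c, 264386 to 696870 in WT 8c and 214053 to 664771 in matPlag1KO 8c embryos. Plag1 itself had 326 counts in WT and 4 in Plag1KO MII oocytes, 1 count in WT and 91 in matPlag1KO 2c embryos, and 10 counts in WT and 6 in matPlag1KO 8c embryos. The counts at 2c do not go against the label, because these embryos carry the paternal allele. The summed level of 5 oocyte markers (Zp3, Gdf9, Bmp15, Mos, Oosp1) had group medians of 5491 and 13705 CPM at MII, 3248 and 4538 CPM at 2c, and 63.7 and 97.4 CPM at 8c, in WT and knockout groups respectively. The 9 markers of cumulus cells, which surround the oocyte, had a group median of at most 20.2 CPM in sum. The highest sum in a library was 47.3 CPM. In each group 3 to 6 of the 9 had counts, and Ptx3 had none in any of the 6 groups.

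**Figure D1:**
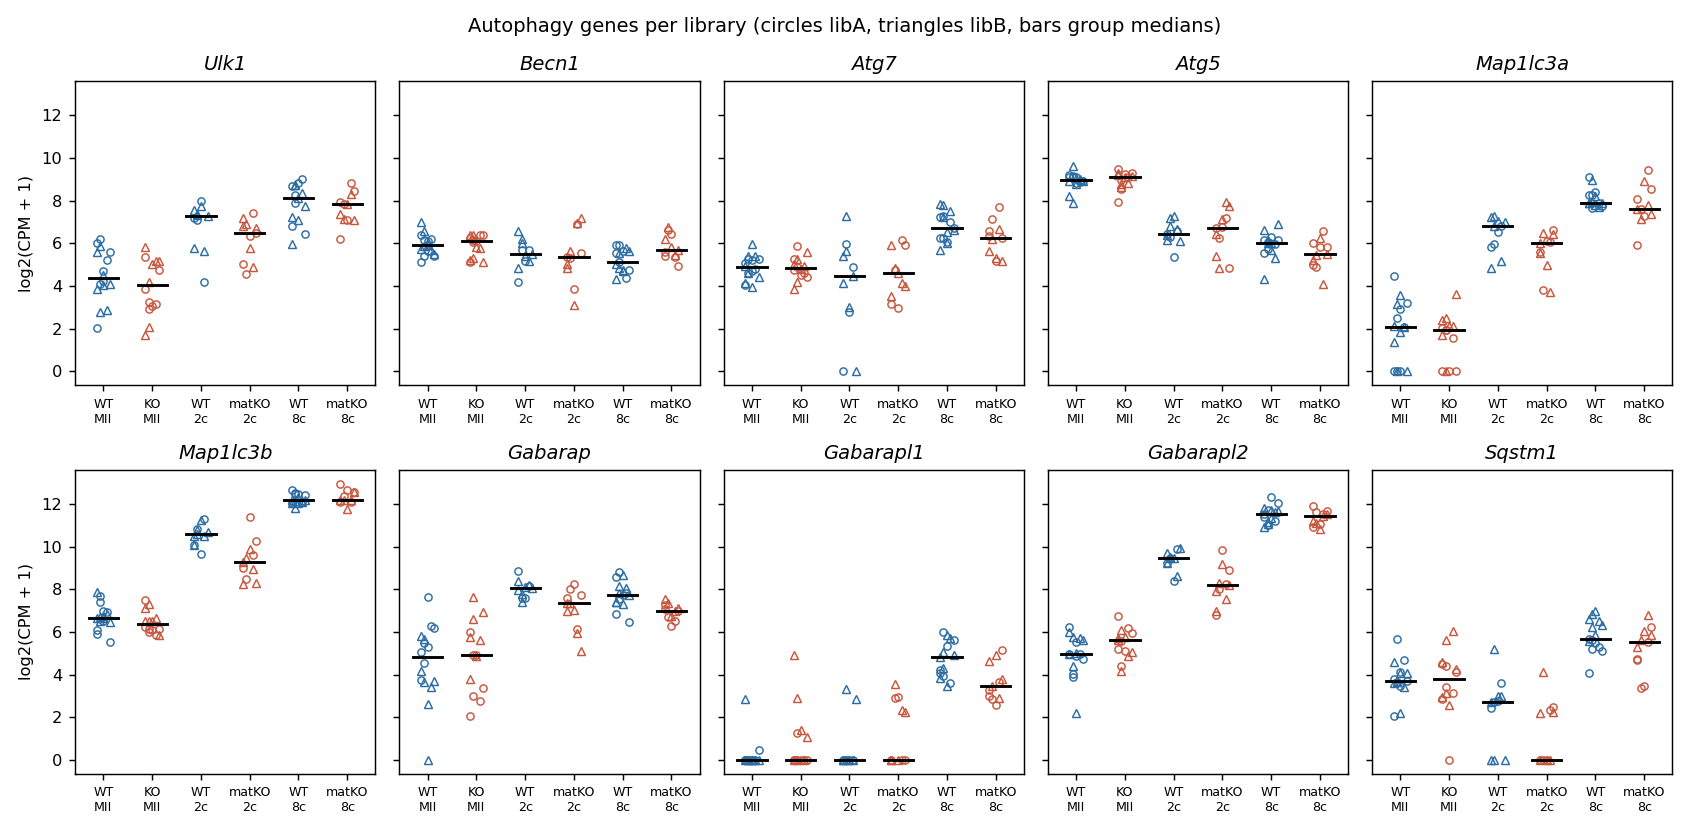
Level of the 10 autophagy genes in each kept library, as log2 of CPM plus 1, for WT (blue) and Plag1KO or matPlag1KO (red) at MII, 2c and 8c. Circles are libraries of the sequencing pool libA, triangles those of libB and black bars group medians; Map1lc3b and Gabarapl2 climb at each stage, Atg5 falls after MII, and Gabarapl1 is at 0 in most MII and 2c libraries.

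Levels are given below as CPM after TMM scaling (trimmed mean of M values). TMM gives each library a scale factor on the premise that most genes do not differ between libraries. Because reads mark the 5′ end of each molecule, counts do not scale with transcript length. Changes between stages were tested on the spike-in scale, which sets counts against the ERCC molecules added to each library and so follows the amount of RNA per embryo. Tests were edgeR quasi-likelihood tests with Benjamini-Hochberg adjustment over 16511 genes, and a gene was called at an adjusted p under 0.05.

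Atg5 had the highest median of the 10 genes in MII oocytes and the steepest fall from MII to 2c in WT. In WT MII oocytes it ranged from 235 to 788 CPM with a median of 502 CPM, in WT 2c embryos from 40.2 to 153 CPM with a median of 86.3 CPM, and in WT 8c embryos from 19.3 to 117 CPM with a median of 63.0 CPM. The MII and 2c libraries did not overlap. The share of all genes whose libraries separate in this way was not counted, here and for the genes below, so separation is description only. On the spike-in scale the fall from MII to 2c in WT was a log2 fold change of -4.01 (SE 0.34, edgeR adjusted p = 8.74e-15). Between 2c and 8c the value was 0.36 (SE 0.35, edgeR adjusted p = 0.403).

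Map1lc3b, which encodes LC3B, the protein most used to mark autophagosomes, went the other way. It ranged from 45.6 to 236 CPM (median 101 CPM) in WT MII oocytes, from 793 to 2477 CPM (median 1537 CPM) in WT 2c embryos and from 3616 to 6455 CPM (median 4609.8 CPM) in WT 8c embryos. Libraries of the 3 stages did not overlap. The log2 fold change on the spike-in scale was 2.35 (SE 0.27, edgeR adjusted p = 6.93e-12) from MII to 2c and 2.51 (SE 0.28, edgeR adjusted p = 2.95e-11) from 2c to 8c.

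Gabarapl2, of the GABARAP subfamily, climbed with it. Its WT libraries ranged from 3.66 to 75.3 CPM (median 30.1 CPM) at MII, from 339 to 963 CPM (median 714 CPM) at 2c and from 1927 to 5116 CPM (median 2955 CPM) at 8c, again without overlap. The log2 fold change was 2.76 (SE 0.32, edgeR adjusted p = 4.73e-12) from MII to 2c and 3.02 (SE 0.32, edgeR adjusted p = 1.09e-11) from 2c to 8c.

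From MII to 2c in WT, 3 of the 10 genes rose and 4 fell on the spike-in scale, while 14.1% of all genes tested rose and 51.3% fell. The third gene that rose was Map1lc3a (log2 fold change 2.34, SE 0.51), and Becn1 (-1.86, SE 0.37), Atg7 (-1.41, SE 0.48) and Sqstm1 (-2.36, SE 0.59) fell beside Atg5. The median log2 fold change of the 10 genes was 0.21, and that of all genes was -1.46. With TMM scaling, which moved the median of all genes to -0.03, 5 of the 10 genes rose and 1 fell, beside 4540 and 3814 of all 16511 genes. Ulk1 (2.23) and Gabarap (2.62) were then called higher, Becn1 (-0.39) and Sqstm1 (-0.93) lost their call, and Atg7 stood at 0.23 with no call. Libraries were sequenced in 2 pools, libA and libB, each with every stage and genotype. Labels give each library a code of a letter and a number within its pool. The letter is called its row here and the code its barcode position, names the labels do not use. On the spike-in scale Map1lc3a lost its call in libA alone (1.35), and Atg7 (-0.49) and Sqstm1 (-1.40) lost theirs in libB alone. Ulk1 (1.599, edgeR adjusted p = 0.0150) and Gabarap (2.51, edgeR adjusted p = 0.00016) were called higher in libB alone and stood at -0.32 and -0.12 in libA. The WT MII oocytes held row A in libA and row B in libB, so pool and row cannot be told apart for them.

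From 2c to 8c in WT, 7 of the 10 genes rose and 0 fell, against 31.9% and 16.2% of all genes. They were Ulk1 (log2 fold change 1.95, SE 0.47), Atg7 (2.71, SE 0.48), Sqstm1 (3.82, SE 0.59) and, of the ATG8 genes, Map1lc3a (2.48, SE 0.48), Map1lc3b, Gabarapl1 and Gabarapl2. The median over the 10 genes was 2.50, beside 0.53 for all genes. With TMM scaling the counts were again 7 and 0, beside 3475 and 4767 of all 16511 genes, and the median of all genes was -0.12. Gabarapl1 had 3 counts in all WT 2c libraries together and 189 in the WT 8c libraries, a 38.1-fold ratio on the spike-in scale with a 95% interval of 12.8 to 186 that covers counting error only.

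Over the whole span from MII to 8c in WT, 8 of the 10 genes were higher and Atg5 (log2 fold change -3.65, SE 0.31) and Becn1 (-1.31, SE 0.33) were lower, against 27.1% and 43.6% of all genes. Gabarapl2 (5.78, SE 0.29), Map1lc3b (4.86, SE 0.25) and Map1lc3a (4.82, SE 0.47) had the steepest fitted increases. Their WT 8c libraries lay above every WT MII library, a separation that was not counted over all genes. Atg7 (1.30), Gabarap (1.40) and Sqstm1 (1.46) were called over both pools but not in libA alone, where their log2 fold changes were 0.59, 0.58 and 0.16. Becn1 lost its call in libB alone (-1.02, edgeR adjusted p = 0.0542).

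In knockout oocytes and embryos the same transitions called 3 genes higher and 4 lower from MII to 2c (13.5% and 50.3% of all genes), 7 higher and 0 lower from 2c to 8c (29.1% and 19.5%), and 5 higher and 2 lower from MII to 8c (24.1% and 45.2%). With TMM scaling the counts were 5 and 2, 7 and 1, and 8 and 1. Those of all 16511 genes were then 4799 and 3192, 3501 and 5008, and 5708 and 5617. Atg5 fell by 4.00 (SE 0.35) from MII to 2c on the log2 scale. Map1lc3b rose by 1.22 (SE 0.28) from MII to 2c and by 3.51 (SE 0.30) from 2c to 8c, and Gabarapl2 rose by 0.95 (SE 0.33) and 3.77 (SE 0.34). The rise of 0.95 was not called in libA alone (edgeR adjusted p = 0.115). Gabarap had a log2 fold change of -0.44 (edgeR adjusted p = 0.464) from MII to 2c with ERCC scaling and of 1.604 (edgeR adjusted p = 0.000493) with TMM scaling. With ERCC scaling its value was 1.17 in libA and -1.49 in libB (edgeR adjusted p = 0.0249), so its direction turned both with the scaling and between the pools. Plag1KO MII oocytes held row B in libA and row A in libB, so pool and row cannot be told apart for them.

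**Figure D2:**
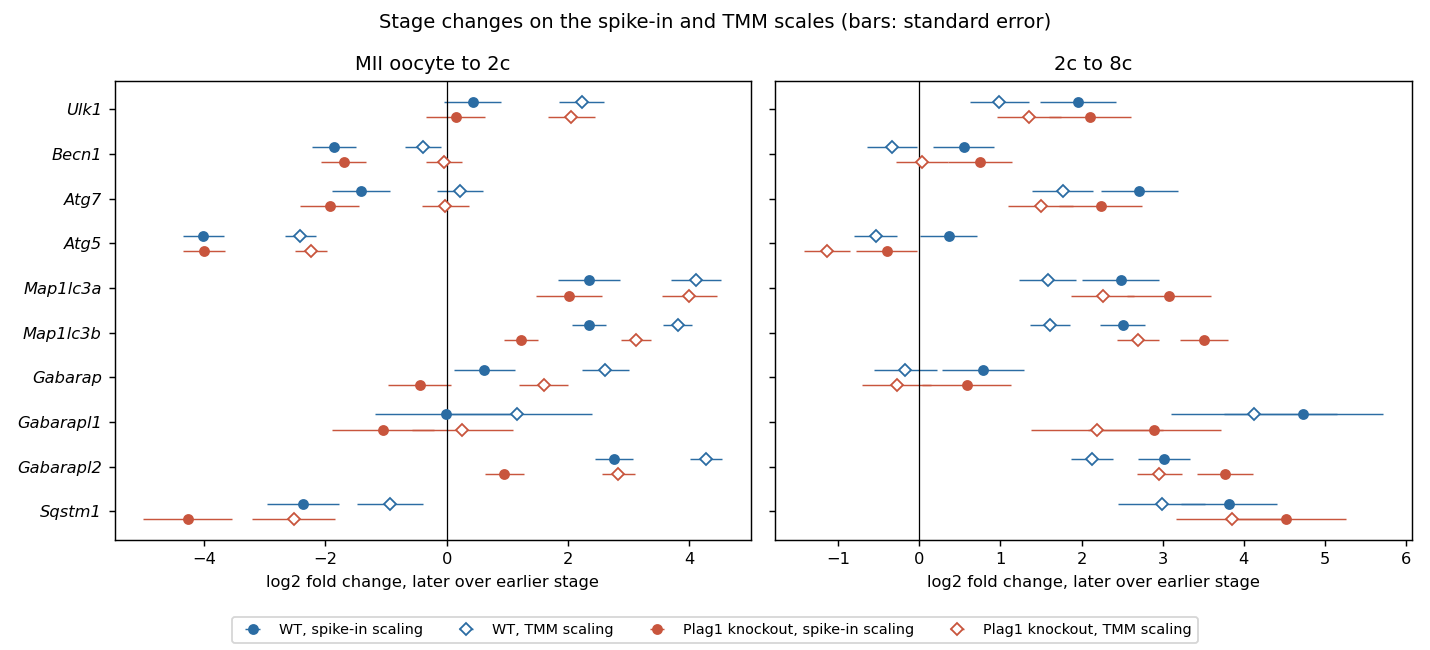
Log2 fold change of each gene from MII to 2c (left) and from 2c to 8c (right), for WT (blue) and Plag1 knockout (red), on the spike-in scale (filled circles) and with TMM scaling (open diamonds); bars are standard errors. Atg5 lies left of 0 from MII to 2c on both scales, and Map1lc3a, Map1lc3b and Gabarapl2 lie right of 0 in both panels.

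The wider pathway was read from 55 further autophagy genes: kinase and lipid transfer proteins that start the autophagosome, subunits and readers of the lipid kinase complex, conjugation enzymes, cargo receptors, fusion proteins and regulators. All 55 were tested. From MII to 2c in WT, 6 rose and 33 fell on the spike-in scale, beside 14.1% and 51.3% of all genes. Their median log2 fold change was -1.94, beside -1.46 for all genes. With TMM scaling 17 rose and 16 fell, beside 4540 and 3814 of all 16511 genes. Wdr45b (5.26) and Wipi2 (3.02), readers of the membrane lipid, and the ATG8 protease gene Atg4d had the highest values among those that rose. Atg4d had 1 count at MII and 14 at 2c, a 21.6-fold ratio with a 95% counting interval of 3.29 to 915. The ER-phagy receptor gene Calcoco1 (-5.52), Rubcn (-5.35), a negative regulator of autophagy, and the ferritin receptor gene Ncoa4 (-4.56) fell most.

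From 2c to 8c in WT, 31 of the 55 rose and 1 fell, beside 31.9% and 16.2% of all genes. Their median was 1.54, beside 0.53 for all genes. With TMM scaling 24 rose and 7 fell, beside 3475 and 4767 of all 16511 genes. In libA alone 20 of the 54 tested there rose and 0 fell. The share of all genes called in libA alone is not given here. The lipid transfer gene Atg2a (4.76), the ATG8 protease gene Atg4c and Tfeb (4.37), a transcription factor of lysosome and autophagy genes, had the highest fitted values. Atg4c had no count in WT 2c embryos and 43 at 8c, at least 8.67-fold higher when 3 counts are set for the WT 2c libraries together. Its only counts outside 8c were 2 in Plag1KO MII oocytes, so it passed the filter on low counts only through 8c libraries. Its rise to 8c follows from that filter and is description only. Uvrag, a subunit of the lipid kinase complex, was the 1 gene that fell (-1.41). From MII to 8c in WT, 21 rose and 22 fell, beside 27.1% and 43.6% of all genes. Their median was 0.06, beside -0.67 for all genes. With TMM scaling 28 rose and 16 fell with a median of 0.84, beside 5949 and 5996 of all 16511 genes with a median of 0. Wdr45b (6.79), Tfeb (6.16) and Atg4d were highest and Rubcn (-5.95), Optn (-4.05) and Uvrag (-3.85) lowest; Atg4d had 1 count at MII and 170 at 8c (159-fold, 95% counting interval 28.1 to 6312). In knockouts the counts were 4 higher and 36 lower, 29 and 3, and 16 and 26 over the same transitions. The shares of all genes were 13.5% and 50.3%, 29.1% and 19.5%, and 24.1% and 45.2%. With TMM scaling the counts were 14 and 17, 24 and 10, and 21 and 17. Those of all 16511 genes were then 4799 and 3192, 3501 and 5008, and 5708 and 5617.

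Map1lc3b supplied the largest part of the ATG8 transcripts in all 6 groups. Its mean share of the summed counts of the 5 ATG8 genes was 58.4% ± 16.5 (SD, n = 16) in WT MII oocytes, 59.5% ± 6.77 (SD, n = 11) in WT 2c and 58.1% ± 6.29 (SD, n = 15) in WT 8c embryos. Gabarapl2 rose from 19.96% ± 13.1 to 25.9% ± 4.38 and 35.1% ± 5.999, while Gabarap went from 18.6% ± 16.2 to 10.8% ± 4.64 and 2.87% ± 1.27 over the same stages. Map1lc3a held 2.89% to 3.78% and Gabarapl1 0.05% to 0.35% in the WT groups. In matPlag1KO 8c embryos Gabarap made up 1.59% ± 0.52 (SD, n = 11) and Map1lc3b 62.8% ± 4.92. These shares do not depend on the scaling and are described without a test. WT MII libraries held a median of 76.5 ATG8 counts (33 to 401), which limits their precision, and WT 8c libraries a median of 3428.

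**Figure D3:**
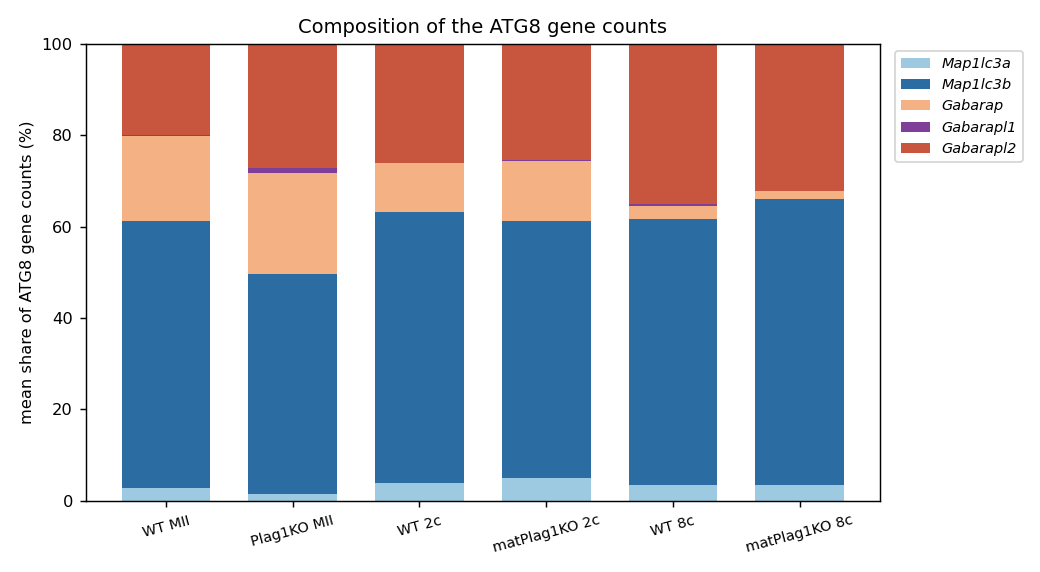
Mean share of each ATG8 gene in the summed counts of the 5 ATG8 genes, in percent, for the 6 groups. Map1lc3b is the largest segment in every bar, and the Gabarap segment shrinks from 18.6% in WT MII oocytes to 2.87% in WT 8c embryos.

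The comparison of Plag1KO with WT MII oocytes asked whether the stored transcripts already differed. None of the 10 genes was called by edgeR (0 higher and 0 lower, against 0.309% and 0.472% of all genes), and DESeq2 called 0. An unadjusted edgeR p under 0.05 was reached by 1 of the 10 and by 1690 of all 16511 genes. The 1 gene of the 10 was Gabarapl1, with 5 counts in 2 of 16 WT and 21 counts in 5 of 14 Plag1KO oocytes (log2 fold change 1.79, SE 0.90, edgeR adjusted p = 0.261). Atg5 was at 247 to 710.1 CPM (median 555 CPM) in Plag1KO oocytes, inside the WT range, with a log2 fold change of 0.05 (SE 0.23). Gabarap differed in opposite directions in the 2 pools, with a log2 fold change of -1.498 (edgeR adjusted p = 0.135) in libA and 1.90 (edgeR adjusted p = 0.00587) in libB, and of 0.24 (SE 0.37) over both. Of the 55 further genes 0 were called by edgeR or DESeq2, and 5 had an unadjusted p under 0.05. With the barcode position, which paired oocytes of opposite genotype across the pools, as a block, 4 of the 50 that could be tested were called higher. The share of all genes called in that fit is not given here. Bnip3l, a mitophagy receptor gene, also differed in opposite directions, by -1.07 in libA and 1.67 in libB (edgeR adjusted p = 0.00158).

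At 2c, Map1lc3b and Gabarapl2 were lower in matPlag1KO than in WT embryos. Map1lc3b ranged from 304 to 2657 CPM with a median of 627 CPM in matPlag1KO embryos, beside the WT median of 1537 CPM. Of the 11 matPlag1KO embryos 8 lay below the lowest WT embryo and 10 below the WT median, and the remaining embryo was the highest of all 22. The log2 fold change was -0.97 (SE 0.26, 1.963-fold lower, edgeR adjusted p = 0.0192). Gabarapl2 ranged from 112 to 917 CPM with a median of 293 CPM in matPlag1KO embryos, beside the WT median of 714 CPM, and 8 of 11 again lay below every WT embryo. Its log2 fold change was -0.99 (SE 0.28, 1.99-fold lower, edgeR adjusted p = 0.0278). The matPlag1KO embryo with the highest level was the same one for both genes, at position D6 of libA.

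These were 2 of the 10 genes called lower and 0 called higher, against 2.62% and 2.3% of all genes. With ERCC scaling, where the log2 fold changes were -0.91 and -0.92, both calls were lost (edgeR adjusted p = 0.0847 for Map1lc3b and 0.126 for Gabarapl2). They were also lost with all libraries kept (-0.91 and -0.73) and in libA alone (-0.56 and -0.73), and held in libB alone (-1.56 and -1.34). In libB the WT embryos held row C and the matPlag1KO embryos row D, so genotype and row cannot be told apart in that pool. In libA the WT embryos held both rows and the matPlag1KO embryos row D. Leaving out each 2c library in turn kept Map1lc3b called in 22 of 22 fits and Gabarapl2 in 18 of 22. Gabarapl2 lost its call without the matPlag1KO embryo at position D2 of libA (edgeR adjusted p = 0.0510), without either of those at D2 (0.0626) or D6 (0.0511) of libB, and without the WT embryo at D5 of libA (0.0550). Reads of the 5′ end of Map1lc3b carry a further limit: its opening 50 bases occur a second time in the mm9 genome, in Gm6055 on chromosome 14, so reads from either place cannot be told apart by these bases. Those of Atg7 also occur a second time in mm9, on an unplaced sequence.

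**Figure D4:**
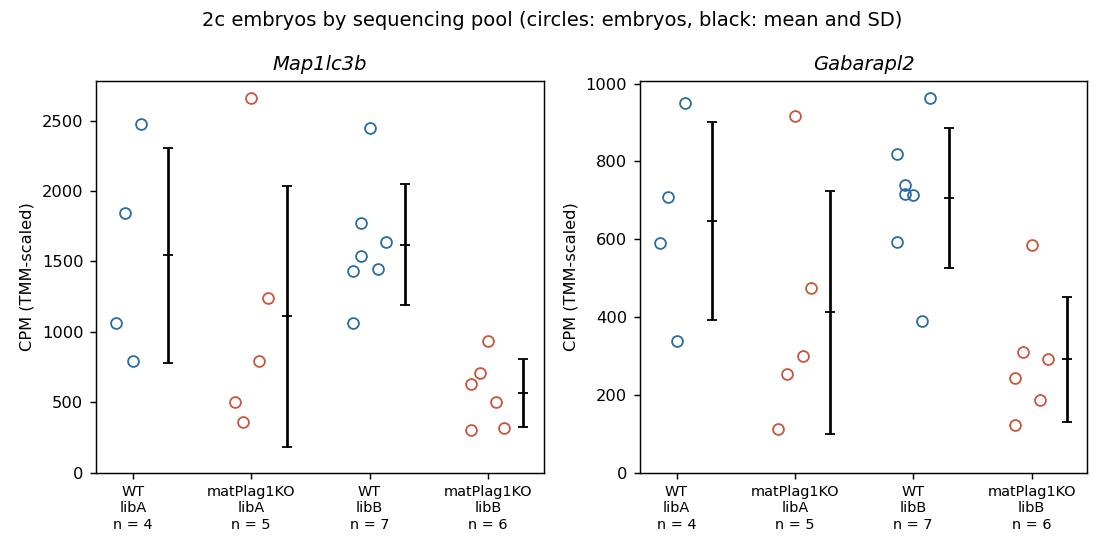
Level of Map1lc3b (left) and Gabarapl2 (right) in CPM in 2c embryos, by genotype and sequencing pool; circles are embryos and black marks the mean with SD. In libB the 6 matPlag1KO embryos lie below the 7 WT embryos for Map1lc3b, and in libA the groups overlap for both genes.

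The other 8 genes were not called at 2c. Map1lc3a ranged from 12.2 to 97.0 CPM (median 64.6 CPM) in matPlag1KO and from 27.3 to 152 CPM (median 109 CPM) in WT embryos, with all 11 matPlag1KO embryos below the WT median (log2 fold change -0.77, SE 0.40, edgeR adjusted p = 0.247). Gabarap ranged from 33.8 to 308 CPM (median 162 CPM) in matPlag1KO and from 166 to 458 CPM (median 263 CPM) in WT, and 7 of 11 matPlag1KO embryos lay below every WT embryo (-0.78, SE 0.42, edgeR adjusted p = 0.288). Sqstm1 had 7 counts in 5 of 11 matPlag1KO and 16 counts in 8 of 11 WT embryos (-1.30, SE 0.78, edgeR adjusted p = 0.293). Ulk1 had medians of 87.8 CPM and 156 CPM (-0.67, SE 0.41), Becn1 of 39.9 and 43.8 CPM (0.31, SE 0.33), Atg7 of 23.1 and 21.2 CPM (-0.25, SE 0.43) and Atg5 of 104 and 86.3 CPM (0.23, SE 0.29), in matPlag1KO and WT respectively. Gabarapl1 had 7 and 3 counts, a 2.07-fold ratio with a 95% counting interval of 0.47 to 12.4. The median log2 fold change of the 10 genes was -0.72, beside 0.12 for all genes.

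Stage markers differed in group median between the genotypes at 2c, with overlapping ranges and without a test. The summed level of 5 genes that rise by 8c (Cdx2, Krt18, Krt8, Tfap2c, Dppa5a) ranged from 178 to 2296 CPM (median 1286 CPM) in WT and from 182 to 1232 CPM (median 318 CPM) in matPlag1KO 2c embryos. Krt8 went the other way, with no count in WT and some in matPlag1KO 2c embryos. The sum of 5 genes known for a burst at 2c (Zscan4c, Zscan4d, Zfp352, Tdpoz4, Usp17la) ranged from 83.3 to 1097 CPM (median 203 CPM) in WT and from 254 to 1657 CPM (median 567 CPM) in matPlag1KO. The part of developmental timing in the lower Map1lc3b and Gabarapl2 was not tested. Of the 8 barcode positions kept in both pools at 2c, 2 held opposite genotypes, so genotype and position are largely confounded at 2c.

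**Figure D5:**
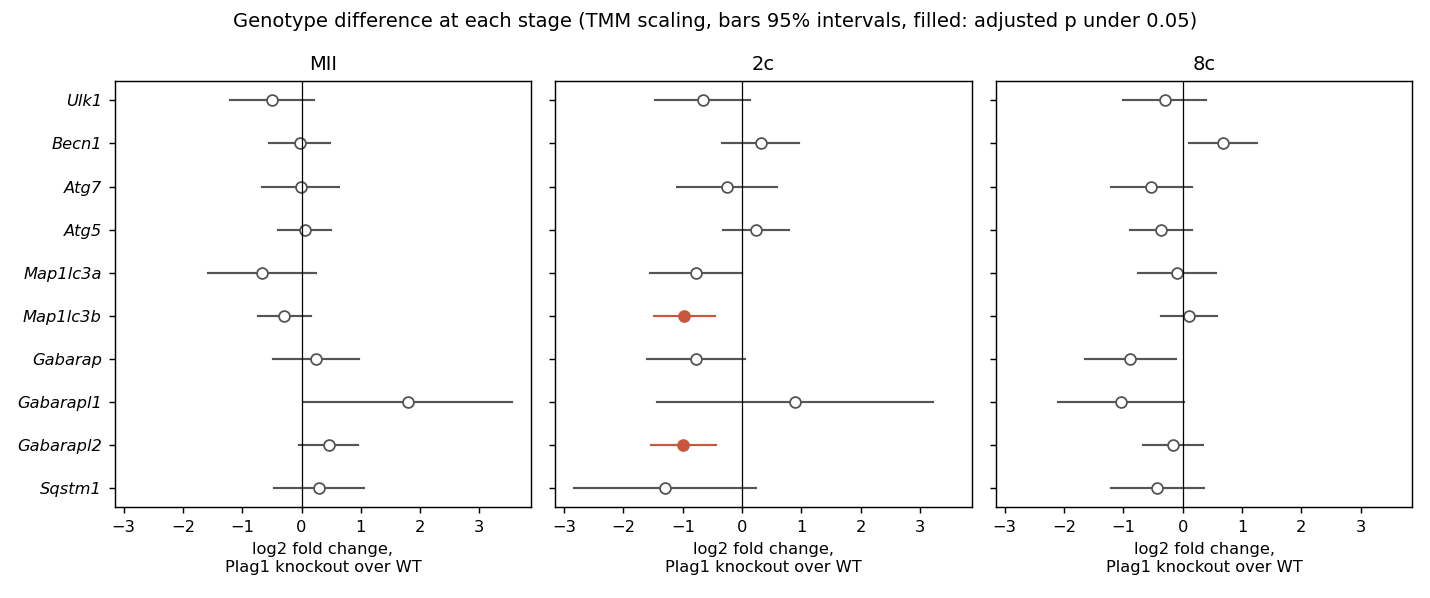
Log2 fold change of each gene in Plag1KO or matPlag1KO over WT at MII (left), 2c (middle) and 8c (right) with TMM scaling; bars are 95% intervals and filled red points have an adjusted p under 0.05. Map1lc3b and Gabarapl2 at 2c are the called points, at -0.97 and -0.99.

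Promoters are shown for the 2 genes that were lower at 2c and for 2 genes that hold a searched motif. RefSeq promoter windows of GRCm38.p6, running from 250 bases before to 50 after the start site, matched 8 of the 10 genes and left out Becn1 and Map1lc3a. The motifs were CACGTG, the core of the element bound by TFEB, and the bipartite PLAG1 consensus, each searched on both strands. CACGTG lay in the Atg5 window, 14 bases before the start, and in that of Atg7, and is held by 7.15% of all 32851 windows. The PLAG1 consensus lay in the Gabarapl1 window, 48 bases before the start, and in that of Ulk1, and is held by 19.2% of all windows. Neither was found in these windows of Map1lc3b, Gabarapl2, Gabarap or Sqstm1. The RefSeq start site of Atg7 lies 27999 bases downstream of its start in the count table, so that window belongs to another start site. The 250 bases before the start follow, 5′ to 3′, with motif matches in capitals; by exact match to mm9 they lie at chr8:124114088-124114337, chr8:114464353-114464602, chr10:43987895-43988144 and chr6:129482960-129483209 on the plus strand. They end at the start site given in the count table, except for Map1lc3b, whose listed start lies 30 bases further downstream.
Map1lc3b: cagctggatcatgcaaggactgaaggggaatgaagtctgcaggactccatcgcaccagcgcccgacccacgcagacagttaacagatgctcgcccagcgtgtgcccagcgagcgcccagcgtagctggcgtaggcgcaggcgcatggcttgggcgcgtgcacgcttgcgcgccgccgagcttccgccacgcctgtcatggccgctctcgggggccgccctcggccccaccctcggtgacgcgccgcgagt
Gabarapl2: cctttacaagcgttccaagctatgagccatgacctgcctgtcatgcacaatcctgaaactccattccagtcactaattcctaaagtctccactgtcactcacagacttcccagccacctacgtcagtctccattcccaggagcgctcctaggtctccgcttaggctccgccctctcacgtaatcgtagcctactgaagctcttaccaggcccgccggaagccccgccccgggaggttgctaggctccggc
Atg5: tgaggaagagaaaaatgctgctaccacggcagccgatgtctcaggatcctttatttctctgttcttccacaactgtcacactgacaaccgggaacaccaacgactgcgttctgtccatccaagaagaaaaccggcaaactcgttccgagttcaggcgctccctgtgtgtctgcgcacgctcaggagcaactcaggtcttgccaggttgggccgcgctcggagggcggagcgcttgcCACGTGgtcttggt
Gabarapl1: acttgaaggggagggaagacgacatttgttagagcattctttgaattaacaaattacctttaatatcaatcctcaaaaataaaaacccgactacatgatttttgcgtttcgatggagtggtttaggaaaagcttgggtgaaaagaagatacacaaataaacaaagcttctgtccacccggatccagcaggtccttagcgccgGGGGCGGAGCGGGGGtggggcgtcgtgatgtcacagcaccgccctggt

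Among the 55 further autophagy genes at 2c, 3 were lower and 1 was higher in matPlag1KO embryos, against 2.62% and 2.3% of all genes. Their median log2 fold change was -0.21, beside 0.12 for all genes. Bnip3l ranged from 175 to 415 CPM (median 248.8 CPM) in matPlag1KO and from 293 to 1507 CPM (median 659 CPM) in WT embryos, with overlapping groups (-1.53, SE 0.36, edgeR adjusted p = 0.00674). Wdr45b, at medians of 18.4 and 89.4 CPM (-1.37, SE 0.41, edgeR adjusted p = 0.0377), and Atg101, a partner of ULK1, at 61.7 and 117 CPM (-1.001, SE 0.30, edgeR adjusted p = 0.0342), were also lower. Atg2a was higher, at 46.9 and 16.8 CPM (1.73, SE 0.53, edgeR adjusted p = 0.0369). None of the 4 was called on the spike-in scale or in libA alone. In libA Bnip3l stood at -1.69, Wdr45b at -0.78, Atg101 at -0.80 and Atg2a at 1.13. DESeq2 called 4 of the 55 higher and 3 lower, in a fit whose share of all genes called is not given here. Atg101 was also lost with all libraries kept, in libB alone and with 2c libraries alone (-0.95), Wdr45b with 2c libraries alone (-1.32), and Atg2a in libB alone. Leaving out each 2c library in turn kept Bnip3l called in 22 fits, Atg101 in 16, Wdr45b in 11 and Atg2a in 10.

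At 8c none of the 10 genes was called by edgeR (0 higher and 0 lower, against 1.21% and 0.527% of all genes) or by DESeq2. An unadjusted edgeR p under 0.05 was reached by 2 of the 10, Gabarap and Becn1, and by 2363 of all 16511 genes. Gabarap ranged from 75.5 to 185 CPM (median 127 CPM) in matPlag1KO and from 88.1 to 446 CPM (median 213 CPM) in WT embryos, and all 11 matPlag1KO embryos lay below the WT median (log2 fold change -0.88, SE 0.39, edgeR adjusted p = 0.277). It was called when the fit held the 8c libraries alone (-0.83, edgeR adjusted p = 0.0198). Becn1 ranged from 29.5 to 108 CPM (median 51.2 CPM) and from 19.3 to 59.2 CPM (median 33.4 CPM) in matPlag1KO and WT (0.68, SE 0.30, edgeR adjusted p = 0.242). Map1lc3b was at 3441 to 7951.5 CPM (median 4649 CPM) in matPlag1KO embryos, with a log2 fold change of 0.11 and a 95% interval of -0.36 to 0.58, and Gabarapl2 at 1789 to 3845 CPM (median 2778 CPM), with -0.16 and an interval of -0.67 to 0.34. Of the 55 further genes, Nfe2l2, which encodes the stress-response factor NRF2, was lower (medians 8.05 and 33.4 CPM, -1.55, SE 0.44, edgeR adjusted p = 0.0469). Its call was lost on the spike-in scale, without the gene filter, with 8c libraries alone and in either pool alone. At 8c none (0) of the 12 barcode positions kept in both pools held opposite genotypes, so genotype and position cannot be told apart there.

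Whether a genotype difference changed with stage was tested as an interaction. Between 2c and MII, Gabarapl2 differed (interaction -1.45, SE 0.38, edgeR adjusted p = 0.0180), with a genotype difference of 0.46 at MII and -0.99 at 2c, and the call held with ERCC scaling (-1.81, edgeR adjusted p = 0.0195). This was 1 gene of 10 lower and 0 higher, against 1.68% and 1.62% of all genes. The call was lost with all libraries kept and in either pool alone, with interactions of -1.23 with all libraries, -1.47 in libA and -1.49 in libB. Gabarap had interactions of 0.99 in libA and -3.12 in libB (edgeR adjusted p = 0.00134), and of -1.02 over both (edgeR adjusted p = 0.335). In each pool alone, genotype and row at MII cannot be told apart. Between 2c and 8c none of the 10 genes was called by edgeR (0 lower and 0 higher, against 1.13% and 1.17% of all genes). An unadjusted edgeR p under 0.05 was reached by 2 of the 10 and by 2958 of all 16511 genes. Map1lc3b was called there by DESeq2 (-1.03, adjusted p = 0.0357) and had an edgeR interaction of -1.08 (SE 0.36, adjusted p = 0.0756).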

How the data were processed

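The deposited table held raw counts per gene of 90 single oocytes and embryos. The authors made these counts from 5′-end tag sequencing with molecular identifiers, aligned to mm9 and counted with HOMER, as the study's methods and the submitters' processing notes give it; how reads with several genomic matches were treated is not given in the sources used here. The 92 ERCC spike-in rows were kept apart from the genes.

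The 12 libraries whose median CPM was below 1 were dropped, which kept 78. A gene was tested if it reached 1 CPM in 5 or more of these (16511 genes). Fits used edgeR 4.0.16 quasi-likelihood tests in R 4.3.3 over all groups, with Benjamini-Hochberg adjustment. Genotype differences and interactions used TMM scaling, and stage changes used the ERCC total as library size. DESeq2 1.42.0, the other scaling, no gene filter, all libraries, sequencing pool (libA or libB) as a term, each pool alone, and single-stage fits were alternatives. Leaving out each 2c library in turn was added after seeing the data. No pair of libraries agreed within sampling noise (lowest chi-square per degree of freedom 3.54). Barcode positions held opposite genotypes in the 2 pools at MII, where same-position oocytes deviated together once pool means were removed (14 of 14 correlations over 0.1, lowest 0.15), and position was a replicate block there. With group means alone removed, 12 of the 14 were over 0.1 and the lowest was -0.0562. The fits of the genotype difference at 2c and of the MII to 2c change in WT were run on simulated counts. In the stage simulation the spike-in totals were set in proportion to gene counts, unlike in the data. It therefore does not check the spike-in scale at the depths seen here.

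The 10 genes and all lists were chosen with earlier results of these data known. Further autophagy genes were named when called between genotypes or in an interaction, or when among the 3 highest or 3 lowest called in a WT stage change. Intervals of count ratios cover counting error only.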

Additional observations from a re-analysis of the deposited data

Results flagged for a closer look

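The genotype difference (Plag1KO or matPlag1KO against WT) changed between stages for 4 of the 65 autophagy genes, 2 in each of 2 interaction tests in edgeR with adjustment over all genes. Of all genes, 1.68% were called lower and 1.62% higher between 2c and MII, and 1.13% and 1.17% between 2c and 8c, so these counts lie near the background. Between 2c and MII, Gabarapl2 had an interaction of -1.45 on the log2 scale (SE 0.38, adjusted p = 0.0180) and Bnip3l of -1.78 (SE 0.47, adjusted p = 0.0183). Bnip3l differed by 0.25 at MII, over opposite differences of -1.07 in libA and 1.67 in libB, and by -1.53 at 2c. Its interaction was -0.62 in libA and -3.20 in libB, where genotype and row at MII cannot be told apart within a pool. Between 2c and 8c, Nfe2l2 had an interaction of 2.77 (SE 0.67, adjusted p = 0.0146), with a genotype difference of 1.22 at 2c and -1.55 at 8c. Atg2a had an interaction of 2.33 (SE 0.66, adjusted p = 0.0347), with 1.73 at 2c and -0.60 at 8c. None of the 4 was called in libA alone. With ERCC scaling the call of Gabarapl2 was kept and those of Bnip3l (-1.89), Nfe2l2 (2.86) and Atg2a (2.55) were lost. Bnip3l was also lost with all libraries kept (-1.45), Gabarapl2 with all libraries kept and in libB alone, and Nfe2l2 (2.65) and Atg2a (2.88) in libB alone.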

How the results depend on the processing

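For settings other than scaling, the share of all genes called is not given here, so those counts have no background. At MII, libB alone called 1 of the 10 genes and 2 of the 54 further genes tested there. The replicate block of barcode position, with the pool as a term, called 4 of 50. At 2c, the spike-in scale, all libraries kept and libA alone each called 0 of the 10 genes. On the spike-in scale 191 of all 16511 genes were called higher and 94 lower. Of the 55, the spike-in scale and libA alone called 0 and DESeq2 called 7. At 8c, the fit on that stage alone called 1 of the 10. The spike-in scale, no gene filter, libA alone and libB alone each called 0 of the 55. Of all 16511 genes, 91 were called higher and 15 lower at 8c on the spike-in scale. In the interaction of 2c with MII, all libraries kept and libA alone called 0 of the 10. In that of 2c with 8c, libB alone and DESeq2 each called 1. Leaving out each 2c library in turn gave 1 to 2 of the 10 and 1 to 6 of the 55 called at 2c, and 1 to 2 of the 10 in the interaction of 2c with MII, where Map1lc3b was called without the matPlag1KO embryo at position D6 of libA. From 2c to 8c in WT, libA alone called 20 of the 54 tested there. In the stage changes, TMM scaling moved the split of rises and falls. It also turned the sign of 8 of 60 stage changes of the 10 genes: Atg7 (0.23) and Gabarapl1 (1.16) from MII to 2c in WT, Gabarap (1.604) and Gabarapl1 (0.26) from MII to 2c in knockouts, Becn1 (-0.33), Atg5 (-0.54) and Gabarap (-0.17) from 2c to 8c in WT, and Gabarap (-0.28) from 2c to 8c in knockouts. For the settings other than scaling, the cause was not tested. The kept 2c libraries, of 92475 to 256529 counts each, held at most 16 counts of Gabarapl1 or Sqstm1 per genotype.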
